A study of Homo sapiens with 66 samples.

Results

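HIF-2α and HIF-1β were mapped by chromatin immunoprecipitation and sequencing (ChIP-seq) in HKC-8 cells that lack HIF-1α. HKC-8 is a human renal proximal tubule cell line, and in the HIF1aKO line the HIF-1α gene carries CRISPR-Cas9 frameshift mutations. The line is a single clone, so an effect of the lost gene and a property of that clone cannot be told apart. Cells were kept in 0.5% oxygen for 16 h. HIF-2α was precipitated with the antibody PM9 and HIF-1β with the antibody NB100-110, in 2 replicates each. These 4 samples, of 66 in the series, were taken by their labels, and each has its own peak list. The 50 peak lists of the series come from HKC-8, RCC4 and HepG2 cells, and 16 further samples are input chromatin that was not analysed here. The RCC4 cells were kept in normoxia and the HepG2 cells in 0.5% oxygen for 16 h. Wild-type (WT) and HIF2aKO HKC-8 cells of the same knockout experiment, under the same oxygen and time, served for comparison, as did HKC-8 cells in 3% oxygen (6 h) or 0.5% oxygen (6, 16 or 48 h).

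HIF is a dimer of an oxygen-regulated α-subunit, HIF-1α or HIF-2α, and the constitutive β-subunit HIF-1β (ARNT), and the dimer binds a short motif, ACGTG or GCGTG, known as the hypoxia response element (HRE) core. HIF-1β is also the partner of other basic helix-loop-helix PAS proteins, such as the aryl hydrocarbon receptor (AhR), which binds the element TNGCGTG. With HIF-1α gone, HIF-2α is the main α-subunit left to pair with HIF-1β, so the lists ask how far the sites of the 2 subunits coincide and what sets apart the sites where only 1 of them was called.

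The HIF-2α lists held 5228 and 6540 peaks and the HIF-1β lists 3387 and 5786, for replicates 1 and 2. Replicate 1 was the shorter list for both antibodies. The lists of the antibodies overlapped in peak number (difference of the mean log2 peak numbers 0.40, two-sided exact permutation test, p = 0.667, adjusted p = 0.778, n = 2). With 2 lists against 2, the smallest p this test allows is 0.3333. Each peak has a score, which was read as −10 × log10 of the peak's p-value, with a lowest value of 50 in any list. Read depth is not in the lists and is unknown, and a site that was not called may lie just under this limit. As a check of the genotype, 142 sites were taken that were called in both HIF-1α lists and in neither HIF-2α list of WT cells. HIF-1β was called at 95.8% and 96.5% of them in WT cells, at 89.4% and 81.0% in HIF2aKO cells, and at 4.23% and 13.4% in HIF1aKO cells. At 2367 WT sites called for HIF-2α only, HIF-1β was called at 78.9% and 90.6% in WT and 47.3% and 65.8% in HIF1aKO cells. In HIF2aKO cells the shares there were 16.9% and 14.7%. HIF-1β calls were thus fewer in HIF1aKO than in WT cells at HIF-2-only sites as well, though by less.

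A HIF-2α site was a place called in both HIF-2α replicates (4321 sites), and a HIF-1β site a place called in both HIF-1β replicates (2933 sites). Each was sorted by whether a peak of the other subunit overlapped it by at least 1 bp in both, 1 or neither of the other subunit's lists. The central 200 bp (100 bp to either side of the site's centre) are printed here for 8 sites, in GRCh37 coordinates on the plus strand, to show what the motif counts below refer to.

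GADD45B and BHLHE40 are near the leading sites shared by both subunits. Capitals mark matches to the HRE core (either form, on either strand) and to the AP-1 element (TGAGTCA or TGACTCA).
GADD45B chr19:2490721-2490920: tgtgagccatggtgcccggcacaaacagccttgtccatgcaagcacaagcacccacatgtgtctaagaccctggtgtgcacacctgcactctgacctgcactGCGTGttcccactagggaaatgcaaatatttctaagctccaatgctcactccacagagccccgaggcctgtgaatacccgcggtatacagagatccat
BHLHE40 chr3:5020499-5020698: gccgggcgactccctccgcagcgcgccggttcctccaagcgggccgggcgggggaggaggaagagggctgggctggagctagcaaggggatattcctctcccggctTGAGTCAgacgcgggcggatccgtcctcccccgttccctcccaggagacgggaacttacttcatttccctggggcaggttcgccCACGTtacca

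ROBO2 and SMYD3 are the nearest genes of 2 HIF-2α sites without HIF-1β that recurred across the HKC-8 lists. Capitals mark an AP-1 element at ROBO2 and the complement of GCGTG at SMYD3, there part of an AhR element, and both windows repeat the letters ATTCC, left in lower case.
ROBO2 chr3:76546871-76547070: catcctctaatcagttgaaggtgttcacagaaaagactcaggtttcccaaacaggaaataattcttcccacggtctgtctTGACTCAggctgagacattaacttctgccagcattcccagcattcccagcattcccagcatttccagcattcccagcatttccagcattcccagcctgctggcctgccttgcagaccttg
SMYD3 chr1:246598947-246599146: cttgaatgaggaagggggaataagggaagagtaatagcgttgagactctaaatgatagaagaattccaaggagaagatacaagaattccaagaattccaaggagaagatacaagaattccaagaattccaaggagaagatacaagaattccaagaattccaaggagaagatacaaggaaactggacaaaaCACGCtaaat

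FARP1 and UBE2J2 are the nearest genes of the 2 highest-ranked HIF-1β sites without HIF-2α that hold the AhR element. Capitals mark that element.
FARP1 chr13:98891548-98891747: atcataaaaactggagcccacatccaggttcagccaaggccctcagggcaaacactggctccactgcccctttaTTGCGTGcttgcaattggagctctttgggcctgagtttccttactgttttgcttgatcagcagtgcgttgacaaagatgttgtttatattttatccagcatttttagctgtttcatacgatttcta
UBE2J2 chr1:1200357-1200556: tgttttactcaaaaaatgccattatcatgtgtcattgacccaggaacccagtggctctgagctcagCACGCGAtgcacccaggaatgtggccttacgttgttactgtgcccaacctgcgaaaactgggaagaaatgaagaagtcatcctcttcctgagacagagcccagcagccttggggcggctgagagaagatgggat

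NUDT12 and SOX9 are the nearest genes of the 2 highest-ranked of all HIF-1β sites without HIF-2α. These windows hold no HRE core, AP-1 or AhR element, so they are in lower case throughout, and each holds GGAAT or ATTCC once.
NUDT12 chr5:102764051-102764250: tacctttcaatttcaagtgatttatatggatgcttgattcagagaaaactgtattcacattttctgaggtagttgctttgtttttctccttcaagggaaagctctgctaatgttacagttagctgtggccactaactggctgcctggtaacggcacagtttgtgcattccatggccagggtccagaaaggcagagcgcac
SOX9 chr17:70403705-70403904: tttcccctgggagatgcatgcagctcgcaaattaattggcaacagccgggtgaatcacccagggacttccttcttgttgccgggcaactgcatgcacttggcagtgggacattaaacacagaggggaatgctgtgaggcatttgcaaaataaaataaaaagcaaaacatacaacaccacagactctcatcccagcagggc

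Both subunits were called at most of each other's sites. Of the 4321 HIF-2α sites, 2719 (62.9%) had a HIF-1β peak in both lists, 1178 (27.3%) in 1 list and 424 in neither, which is 9.81% (95% Clopper-Pearson interval 8.94 to 10.7%). Of the 2933 HIF-1β sites, 2706 (92.3%) had a HIF-2α peak in both lists, 163 (5.56%) in 1 list and 64 in neither, which is 2.18% (1.68 to 2.78%). These intervals and those below cover counting error only. The gap between the 2 shares was not there at equal list lengths. When every list was reduced to its 3375 highest-scoring peaks, 130 of 2702 HIF-2α sites (4.81%) lacked HIF-1β and 119 of 2465 HIF-1β sites (4.83%) lacked HIF-2α. Within a replicate, which asks for a peak in 1 list only, the shares were larger. HIF-2α peaks without HIF-1β of the same replicate made up 42.9% and 25.7% of the list, and HIF-1β peaks without HIF-2α 12.03% and 16.9%.

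As a share of the shorter list, lists of different subunits overlapped about as much (76.2 to 88.4%) as lists of the same subunit (83.3 and 87.3%). HIF-2α replicate 1 shared 83.3% of its peaks with HIF-2α replicate 2, which shared 67.2% of its own in return. HIF-1β replicate 1 shared 87.3% with HIF-1β replicate 2, and 51.3% in return. In the same order of replicates, HIF-1β shared 88.0% and 83.1% of its peaks with the HIF-2α list of its own number, and HIF-2α shared 57.1% and 74.3% with that HIF-1β list. Sites moved by 10 kb overlapped in 2.11 to 3.91%. At the 2719 shared sites, the centres of HIF-2α and HIF-1β peaks lay a median of 66 and 62 bp apart in the 2 replicates, beside 65 bp between the HIF-2α replicates and 66 bp between the HIF-1β replicates. Centres are midpoints of peaks, since summits are not in the lists. The scores there ran together across sites of these libraries, with a Spearman correlation of 0.78 and 0.88 between subunits of the same replicate number, 0.77 and 0.73 between subunits of different numbers, and 0.85 and 0.77 between replicates of HIF-2α and HIF-1β. The median distance between the subunits' peaks was thus about that between replicates. Across replicate numbers the subunits' scores (0.77 and 0.73) ran less closely together than the HIF-2α replicates (0.85). These values were near the 0.77 between the HIF-1β replicates.

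Whether the other subunit was called depended on the score. HIF-2α peaks were split into 10 equal bins by score. In the lowest bin (scores up to 56.9 in either list), 41.8% and 36.4% overlapped a HIF-1β peak of either replicate. In the highest bin, 99.8% and 100% did. For HIF-1β peaks with HIF-2α, the same shares were 73.7% and 52.5% in the lowest bin and 99.4% and 99.8% in the highest. The rise was steady to the seventh bin in the HIF-2α lists and nearly level above it.

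**Figure D1:**
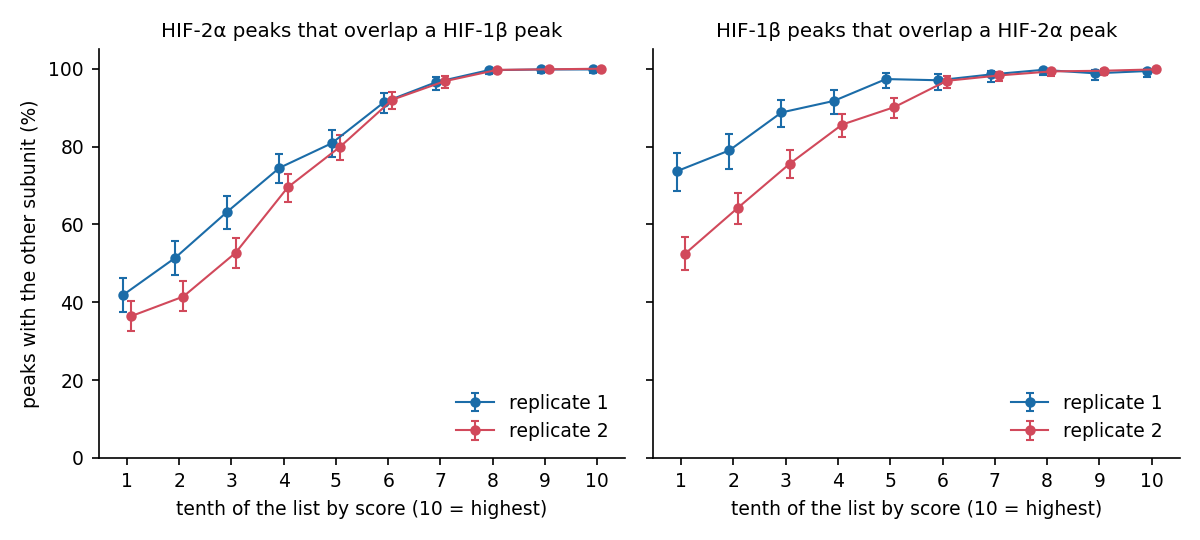
Share of peaks in each list that overlap a peak of the other subunit in either replicate (y axis, percent), by 10 equal bins of score (x axis, 10 = highest). Points are the 2 replicates and bars 95% Clopper-Pearson intervals; HIF-2α replicate 1 runs from 41.8% in the lowest bin to 99.8% in the highest, and HIF-1β replicate 1 from 73.7% to 99.4%.

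HIF-2α sites without HIF-1β were therefore mostly weak ones. Their median score was 76.7, against 108 for sites with HIF-1β in 1 list and 276 for sites with HIF-1β in both. In 5 equal bins of all HIF-2α sites ranked by score, from lowest to highest, 34.0%, 12.2%, 2.55%, 0.231% and 0.116% lacked HIF-1β, the last share being 1 site. Only 33 of the 424 (7.78%) lay in the upper 50% of ranks. The HIF-1β sites without HIF-2α were less tied to low scores. Their median score was 81.4, but 15 of the 64 (23.4%) lay in the upper 50%, and in 5 equal bins the shares without HIF-2α were 7.16%, 1.37%, 1.36%, 0.683% and 0.341%. Sites of either kind were narrower than shared ones, with median widths of 898.5 and 924 bp against 1154 bp. Of the 424, 65 (15.3%) had a HIF-1β peak within 5 kb, against 2.83% and 3.77% after moving the sites by 100 kb to either side. Of the 64, 13 (20.3%) had a HIF-2α peak within 5 kb, against 6.25% after either move.

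HIF-2α sites without HIF-1β lay at promoters somewhat more often than those with it, and HIF-1β sites without HIF-2α did so rarely. A centre within 1 kb of the transcription start site (TSS) of a protein-coding transcript was found for 55 of the 424 (12.97%, interval 9.92 to 16.5%), 12.1% of the sites with HIF-1β in 1 list and 6.84% of those with HIF-1β in both. Among sites of like rank the gap varied. In the lowest of 5 equal bins of score, 33 of 294 without HIF-1β (11.2%, 7.85 to 15.4%) and 45 of 571 with it (7.88%, 5.81 to 10.4%) were at a promoter, and the intervals overlap. Within single replicates the share was 11.8% ± 1.55 without and 8.18% ± 1.95 with HIF-1β of the same replicate (SD, n = 2). Of the HIF-1β sites without HIF-2α, 2 of 64 were at a promoter (3.13%, 0.381 to 10.8%), against 6.69% of those with HIF-2α in both lists. This order turned in replicate 2, where 16.7% of HIF-1β peaks without HIF-2α were at a promoter, against 9.66% of those with it. The median distance to a TSS was 22.7 kb for HIF-2α sites without HIF-1β, 35.9 kb for HIF-1β sites without HIF-2α and 28.1 kb for shared sites.

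The HRE core was nearly as common at HIF-2α sites without HIF-1β as at shared sites. It was in the central 200 bp of 221 of the 424 (52.1%, 47.2 to 57.0%), 50.4% of sites with HIF-1β in 1 list and 56.5% of shared sites. Windows 2 kb to either side held it in 23.3%, and windows of the same length centred on 78564 protein-coding TSS positions in 40.9%. In the lowest of 5 equal bins of score the shares were 49.3% without and 49.2% with HIF-1β. In the second bin they were 61.9% (51.9 to 71.2%) and 49.1% (45.5 to 52.8%), and in the third 50% (11 of 22 sites) and 55.1%. The 2 forms of the core were split differently. ACGTG was in 41.3% (36.5 to 46.1%) of HIF-2α sites without HIF-1β and in 38.4% of shared sites, while GCGTG was in 16.5% (13.1 to 20.4%) against 27.4%, close to the 15.2% of the flanking windows. In the lowest bin, sites without and with HIF-1β held ACGTG in 39.8% and 28.9% and GCGTG in 15.6% and 25.9%. Within single replicates GCGTG was again lower without HIF-1β (21.8% ± 0.631 against 26.4% ± 0.444, SD, n = 2), but ACGTG was not higher (30.9% ± 3.45 against 34.3% ± 3.42).

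HIF-1β sites without HIF-2α held the HRE core less often, and mostly in its GCGTG form. The core was in 25 of the 64 (39.1%, 27.1 to 52.1%), against 56.8% of HIF-1β sites with HIF-2α in both lists. ACGTG was in 6 of the 64 (9.38%, 3.52 to 19.3%), against 39.4% of HIF-1β sites with HIF-2α in both lists and 9.79% of windows 2 kb away. GCGTG was in 23 (35.9%, 24.3 to 48.9%), against 27.2% at the sites with HIF-2α and 14.4% in the windows 2 kb away. The AhR element TNGCGTG, which contains GCGTG, was in 7 of the 64 (10.9%, 4.51 to 21.2%) and in 25 of the 163 HIF-1β sites with HIF-2α in 1 list (15.3%, 10.2 to 21.8%), against 4.66% (3.89 to 5.52%) with HIF-2α in both lists and 2.88% of windows 2 kb away. It was in 1.89% of HIF-2α sites without HIF-1β and 4.22% of TSS windows. For ACGTG and the AhR element, both replicates showed this order when taken alone, but GCGTG did not in replicate 1 (25.9% without against 27.01% with HIF-2α). HIF-1β peaks without HIF-2α of the same replicate held ACGTG in 15.3% ± 4.23 and the AhR element in 7.97% ± 0.571, and those with it in 35.4% ± 4.40 and 4.63% ± 0.0735 (SD, n = 2). Nothing was done in this experiment to activate AhR, and AhR itself was not precipitated.

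The shares of the other motifs follow for HIF-2α sites without HIF-1β, shared sites and HIF-1β sites without HIF-2α. The AP-1 element, bound by FOS and JUN dimers, was in 21.2% of HIF-2α sites without HIF-1β, 18.5% of shared sites and 12.5% of HIF-1β sites without HIF-2α, against 4.13% of the windows 2 kb from HIF-2α sites. The letters GGAATG, which TEAD factors bind, were in 25.9%, 22.1% and 21.9%, against 11.1%. The E-box CACGTG, which contains ACGTG, was in 7.55%, 7.98% and 1.56% (1 of 64 sites, 0.0396 to 8.401%), against 2.28%. The GC box GGGCGG was in 9.67%, 8.31% and 4.69%, against 5.45%, and in 43.4% of TSS windows. All motifs were searched on both strands.

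**Figure D2:**
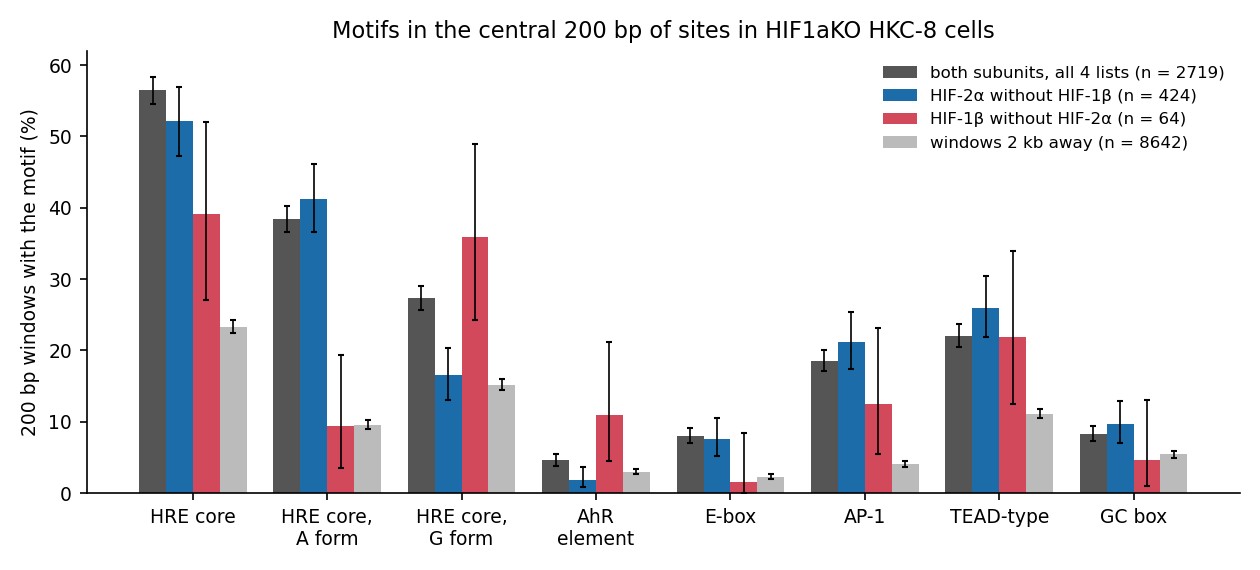
Share of 200 bp windows that hold each motif (y axis, percent) for sites of both subunits in all 4 lists, HIF-2α sites without HIF-1β, HIF-1β sites without HIF-2α, and windows 2 kb to either side of HIF-2α sites. Bars are shares and lines 95% Clopper-Pearson intervals; the A form is ACGTG and the G form GCGTG, and HIF-1β sites without HIF-2α stand at 9.38% for the A form and 35.9% for the G form.

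As whole lists, the subunits overlapped in their promoter and HRE shares. Peaks at promoters made up 8.49% and 10.4% of the HIF-2α lists and 6.64% and 10.8% of the HIF-1β lists. The mean difference was 0.715 percentage points (two-sided exact permutation test, p = 1, n = 2), and the lists overlap. For the HRE core the lists held 51.8% and 49.1% against 53.6% and 49.2%, a difference of -0.994 points (exact permutation p = 0.667, adjusted p = 0.778, n = 2). For AP-1 they held 18.5% and 18.4% against 17.9% and 16.6%, a difference of 1.17 points in which the lists did not overlap (exact permutation p = 0.333, the smallest possible, adjusted p = 0.583, n = 2). These tests cannot reach 0.05. The AhR element was in 3.58% and 4.13% of HIF-2α peaks and 5.04% and 5.17% of HIF-1β peaks, and GCGTG in 24.03% and 25.5% against 26.9% and 27.04%. For both of these the lists did not overlap, and no test was made.

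Over the 6 HKC-8 conditions with both antibodies, the promoter share was lower in HIF-2α than in HIF-1β lists, by a mean of -10.04 points (two-sided exact permutation test within conditions, p = 0.000171, adjusted over 7 tests p = 0.00120). It was lower in 5 of the 6 conditions, by -6.52 points in WT cells to -20.4 points in the cells kept 16 h in 0.5% oxygen, with no overlap of the lists in those 5. HIF1aKO was the exception, at 0.715. With 1 list per antibody and condition, the exact permutation p was 0.0313 for replicate 2 alone and 0.0625 for replicate 1 alone, where the call was lost. In WT cells of the same experiment, 12.6% ± 0.552 of HIF-1β peaks and 6.03% ± 0.320 of HIF-2α peaks were at promoters, beside 8.74% ± 2.98 and 9.46% ± 1.37 in HIF1aKO cells (SD, n = 2). The contrast differed by 7.24 points between HIF1aKO and WT (exact permutation of genotype labels within antibody, p = 0.0556, adjusted p = 0.167 over 3 features). This p is the smallest that 36 arrangements allow, and it did not pass 0.05. The HRE share was lower in HIF-2α than in HIF-1β lists in 6 of 6 conditions, by a mean of -10.7 points (exact permutation p = 0.000472, adjusted p = 0.00165), and by the least in HIF1aKO. That call was lost when peaks scoring under 100 were left out (-3.49 points, exact permutation p = 0.271). The AP-1 share differed by 0.957 points (exact permutation p = 0.240, adjusted p = 0.559), and by 7.85 points with the same peaks left out (exact permutation p = 8.57e-05).

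**Figure D3:**
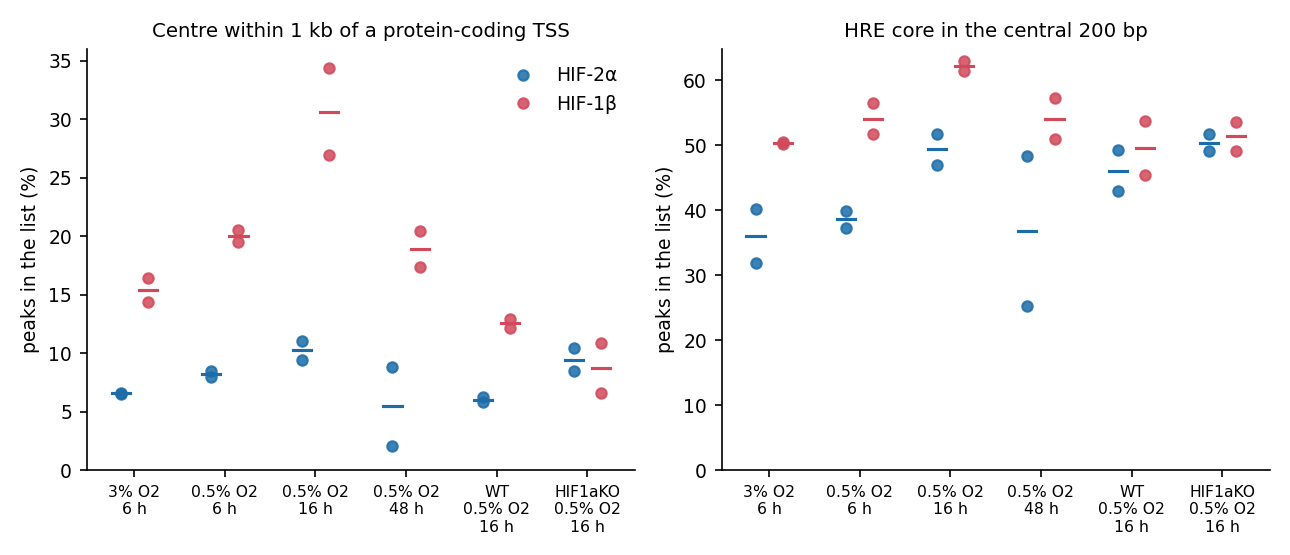
Share of peaks in each list within 1 kb of a protein-coding TSS (left) and with the HRE core in the central 200 bp (right), both in percent, for the 6 HKC-8 conditions with HIF-2α and HIF-1β lists. Points are the 2 replicate lists and lines their means; the HIF-1β lists lie above the HIF-2α lists at promoters in every condition except HIF1aKO, where the means are 8.74% and 9.46%.

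At the shared sites with the highest ranks, all 4 lists were near the top of the caller's scale, where many scores are tied at 3100. The site 14.5 kb from the TSS of GADD45B, a gene induced by stress and DNA damage (chr19:2489348-2492285, intergenic), scored 3100 in both HIF-2α lists and 2633 and 3177 in the HIF-1β lists. The sites nearest FRMD4A, an epithelial polarity scaffold (chr10:14437935-14439999, in its intron), BHLHE40, a hypoxia-induced repressor (chr3:5018670-5022530, 0.523 kb from the TSS), ARRDC3, an arrestin-like adaptor (chr5:90575525-90578011), and AC092291.2 (chr16:14457119-14460118) scored 3100 in all 4 lists. These 5 were also called in 8 to 10 of the 10 other HIF-2α lists and in all 12 other HIF-1β lists of HKC-8 cells.

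The 5 highest-ranked HIF-2α sites without HIF-1β had scores well below these. In an intron of ROBO2, a receptor for Slit guidance cues that acts in kidney development, the site (chr3:76546490-76547555) scored 710 and 469 for HIF-2α and was called in neither HIF-1β list. The site over the TSS of STAT6, a transducer of interleukin signals (chr12:57503989-57506868, 0.017 kb from the TSS), scored 395 and 333. GDF15, a stress-induced cytokine, had a site in its gene (chr19:18492492-18494898, 0.711 kb from the TSS) with 187 and 248. An intronic site of SMYD3, a lysine methyltransferase (chr1:246598561-246599484), scored 207 and 202. The site nearest FOXN3, a forkhead repressor (chr14:89506622-89507866), scored 219.8 and 186. The 5 fell into different kinds once WT cells were read. In WT HIF-1β lists, STAT6 was called with 492 and 459, GDF15 and FOXN3 in 1 list each with 124 and 128, and ROBO2 in 1 list with 73.5, beside 1413 and 1238 for HIF-2α there. SMYD3 was called in neither WT HIF-1β list, beside WT HIF-2α scores of 1290 and 708. Of the 5, STAT6 alone was called for HIF-1α in WT cells (186 and 133), beside WT HIF-2α scores of 175 and 84.5.

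HIF-1β sites without HIF-2α reached higher scores. A site 134 kb from NUDT12, which encodes a peroxisomal NADH hydrolase (chr5:102763618-102764699, intergenic), scored 1259 and 1249 for HIF-1β, and a second one 118 kb from it (chr5:102779722-102780801) scored 421 and 295. A site 287 kb from SOX9, a developmental transcription factor (chr17:70403203-70404404, intergenic), scored 635 and 435. The sites nearest IL37, an anti-inflammatory cytokine (chr2:113638409-113639657), and NIPSNAP2, a mitochondrial protein (chr7:56045153-56046245, in its intron), scored 298 and 345, and 378 and 269.6. No HIF-2α or HIF-1α list of HKC-8 cells called any of these 5. HIF-1β was called at the first NUDT12 site in 10, at SOX9 in all, at the second NUDT12 site in 5, at IL37 in 6 and at NIPSNAP2 in 3 of the 12 other HIF-1β lists.

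Sites called for only 1 subunit in HIF1aKO cells were compared with the lists of the other genotypes, which took no part in sorting them. A WT HIF-1β peak lay at 283 of the 424 HIF-2α sites without HIF-1β (66.7%, 62.04 to 71.2%), and at 33.0% in both WT replicates. The same was true of 94.3% of shared sites and 80.9% of sites with HIF-1β in 1 list, and of 4.01% of the 424 after a 10 kb move. By WT replicate the 424 had HIF-1β at 40.1% and 59.7% and HIF-2α at 33.3% and 54.2%. Most of these sites thus had HIF-1β called in WT cells. There HIF-1α is also present and the HIF-1β lists were longer (6199 and 8279 peaks), and the part of either was not tested. Of the 64 HIF-1β sites without HIF-2α, 55 (85.9%) had a WT HIF-1β peak, 28 (43.8%) a WT HIF-2α peak and 1 a WT HIF-1α peak. In HIF2aKO cells, 26 of the 64 (40.6%, 28.5 to 53.6%) had a HIF-1β peak and 0 a HIF-1α peak, and 0 of 64 allows a share of up to 5.60%. HIF-1β sites with HIF-2α in both lists had these in HIF2aKO cells at 53.3% and 23.4%.

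**Figure D4:**
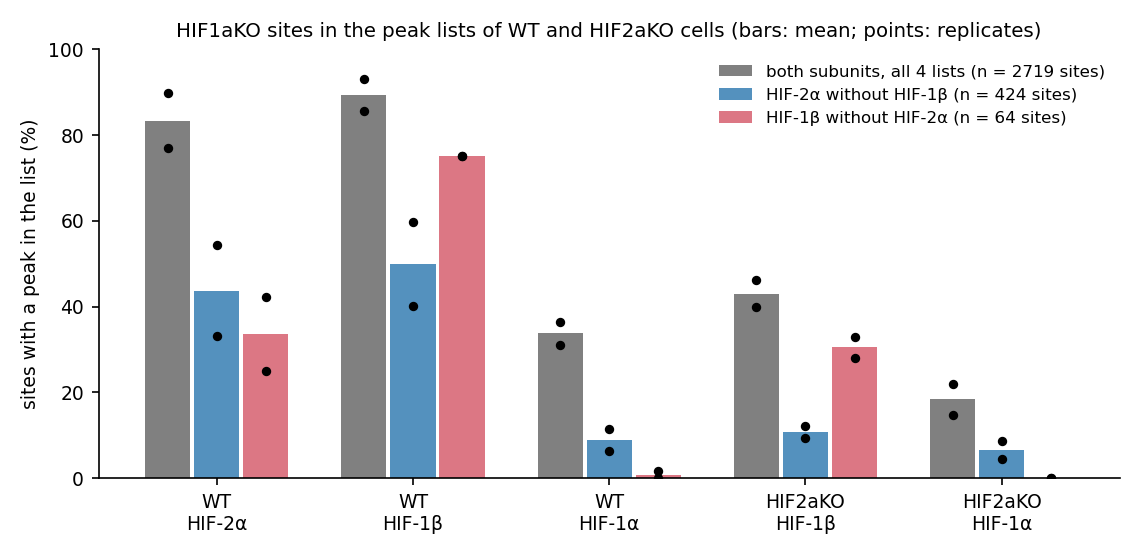
Share of HIF1aKO sites of 3 kinds (y axis, percent) that overlap a peak in each list of WT and HIF2aKO cells. Bars are means and points the 2 replicates; HIF-1β sites without HIF-2α were called for HIF-1β in 75% of cases in either WT list and for HIF-1α in at most 1 case.

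The shares of unmatched peaks differed between genotypes. HIF-2α peaks that met no HIF-1β peak made up 20.1% and 23.2% of the HIF1aKO lists and 11.8% and 12.7% of the WT lists. HIF-1β peaks without HIF-2α made up 7.61% and 13.8% of HIF1aKO lists and 25.3% and 29.3% of WT lists, where HIF-1α is also present. HIF-1β peaks without either α-subunit made up 19.1% and 24.8% of WT lists. In each of these 3 comparisons the lists of the 2 genotypes did not overlap, and the two-sided exact permutation p was 0.333, the smallest possible (n = 2). Both WT HIF-1β lists were longer than the HIF1aKO ones, while the WT HIF-2α lists (4537 and 6749 peaks) were shorter in replicate 1 and longer in replicate 2, and the part of list length in these differences was not tested.

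A small group of HIF-2α sites without HIF-1β recurred in other lists. The other HKC-8 lists are 10 for HIF-2α, 12 for HIF-1β and 12 for HIF-1α. Of the 424, 96 (22.6%) were in none of these lists, 291 (68.6%) were in a HIF-1β list, and 37 (8.73%) were in a HIF-2α list and no HIF-1β list. For shared sites the last share was 1.29%. Of the 424, 16 were called in 5 or more of the 10 HIF-2α lists and in at most 1 of the 12 HIF-1β lists, 10 of them in no HIF-1β list, and 2 of the 2719 shared sites met the same limits. These limits were chosen after the values were seen, so no test is given. The nearest genes of the 16 included ROBO2 (10 HIF-2α lists), SMYD3, NT5C2 and SLC9A9 (9 each), NMNAT3 and AMOTL2 (8 each), DCAF1, HOXC13, ST3GAL1 and CCN2 (7 each), CCDC80 (6), and NUAK1, ZNF644, FAM24B and NUP93 (5 each). CCN2, a matrix-associated growth factor, and AMOTL2, a junction protein, were the 2 with a site within 1 kb of the TSS (0.105 and 0.027 kb). In HIF1aKO cells CCN2 scored 139 and 67.9 for HIF-2α and AMOTL2 69.2 and 60.3.

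Many of these 16 windows held several copies of 1 short sequence, a feature that the sorting did not use. In 9 of the 16 (56.3%, 29.9 to 80.2%), the letters GGAAT or its complement ATTCC occurred 3 or more times in the central 200 bp. The count was 8 at SMYD3, 5 at ROBO2 and NUAK1, 4 at NT5C2 and SLC9A9, and 3 at NMNAT3, CCDC80, CCN2 and ST3GAL1. ZNF644, FAM24B, HOXC13, DCAF1 and AMOTL2 held 0. The same was true of 22 of all 424 sites (5.19%, 3.28 to 7.75%), 74 of 2719 shared sites (2.72%) and 1.08% of windows 2 kb away, and of 0 of the 8 recurrent HIF-1β sites described next. The longer form GGAATG was in 8 of the 16, among them CCN2 but not SMYD3 or AMOTL2, and GGAAT is contained in it. The HRE core was in the central 200 bp of 4 of the 16. The GGAAT count was made after the sequences had been read, and it does not measure whether the copies lie in a row. Peaks over short repeats can also arise from how reads map, and input tracks were not analysed here, so the part of mapping was not tested.

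HIF-1β sites without HIF-2α also recurred, counted by rules unlike those above. Of the 64, 29 (45.3%, 32.8 to 58.3%) were called in another HIF-1β list and in no HIF-1α or HIF-2α list of HKC-8 cells, against 3.86% of shared sites, and 7 (10.9%) were in none of these lists. At a limit of 5 or more HIF-1β lists and no α list stood 7 of the 64 and 3 of the 2719 shared sites. A set of 8 sites, again chosen after the values were seen, were called in 4 or more HIF-1β lists and no α list. Beside both NUDT12 sites, SOX9 and IL37, they included sites nearest UBE2J2, an ubiquitin-conjugating enzyme of the endoplasmic reticulum (132 and 167, in 7 other HIF-1β lists), FMN2, an actin nucleator (63.3 and 122, in 6), and KIF26B, a kinesin (291 and 100.4, in 5). The HRE core was in the central 200 bp of 1 of the 8, UBE2J2, where it is part of the AhR element printed above. All 8 were called for HIF-1β in both HIF2aKO lists and both WT lists as well, with HIF2aKO scores of 616 and 440 at the first NUDT12 site and 307 and 243 at SOX9.

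The 7 HIF-1β sites with the AhR element but no HIF-2α were of middle to low rank. Their nearest genes were FARP1, a guanine nucleotide exchange factor (209 and 130.3), UBE2J2, AVP (123 and 164), TTC29 (123 and 79.1), SHISA2 (77.3 and 55.1), ADCY9 (52.5 and 82.4) and CPEB3 (60.6 and 61.6), with the scores of the 2 HIF-1β lists. None lay within 5 kb of a TSS, and UBE2J2 was the closest at 8.39 kb. All 7 were called for HIF-1β in at least 1 WT list, and 3 of them for HIF-2α in WT cells, with scores of up to 55.0. Of 8 classical AhR target genes, 0 were nearest to a HIF-1β site without HIF-2α, from which nothing can be read, since only 0.308% of all protein-coding genes were. CYP1B1, a cytochrome that metabolises AhR ligands, and AHRR, the AhR repressor, were nearest to shared sites. A CYP1B1 site 66.8 kb from the TSS scored 139 and 126 for HIF-2α and 99.5 and 72.3 for HIF-1β.

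Each site was assigned to the nearest of 20136 protein-coding genes, of which 9.35% were nearest to a shared site, 5.06% to a HIF-2α site with HIF-1β in 1 list, 1.98% to a HIF-2α site without HIF-1β and 0.308% to a HIF-1β site without HIF-2α. Genes of glucose uptake and glycolysis were mostly near sites of both subunits. Of 21, 11 were nearest to a shared site, 7 to a site with HIF-1β in 1 list, 1 to a HIF-2α site without HIF-1β and 0 to a HIF-1β site without HIF-2α. LDHA, which makes lactate, had a site at its TSS with 2951 and 3100 for HIF-2α and 1896 and 3100 for HIF-1β. GAPDH scored 1391 and 1464 against 420.2 and 931. At PGK1, the phosphoglycerate kinase, HIF-2α scored 148 and 328 and HIF-1β was called in replicate 2 only, with 303. PDK1, which restrains pyruvate dehydrogenase, had the same pattern (94.3 and 146 against 107 in replicate 2). The missing HIF-1β call was thus in replicate 1, the shortest list, for both genes.

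Of 12 genes often tied to HIF-2, 7 were nearest to a shared site, 2 to a site with HIF-1β in 1 list and 1 to a HIF-2α site without HIF-1β. TGFA, a ligand of the EGF receptor, had 2613 and 3100 against 1672 and 3100, at a site 42.9 kb away. VEGFA, the angiogenic growth factor, had 631 and 892 against 236 and 894. EGFR, the receptor of TGFA, had an intronic site without HIF-1β (chr7:55198994-55199740, 52.5 and 73.9) that lay between shared sites at chr7:55197405-55198952 (561 and 385 against 179.9 and 215) and chr7:55200087-55202193 (135 and 192 against 57.3 and 85.8). Of 16 other classical hypoxia targets, 12 were nearest to a shared site and 1, KDM4B, a histone demethylase, to a HIF-2α site without HIF-1β (97.4 and 53.4, 91.0 kb away). CA9, a carbonic anhydrase, had HIF-1β in replicate 2 only (152 and 262 against 161). PLOD2, a lysyl hydroxylase, was nearest to 2 shared sites and to a HIF-1β site without HIF-2α with scores near the caller's limit (55.9 and 50.3). Of 8 AP-1 family genes, 2 (FOSL2 and JUN) were nearest to a shared site and 0 to a site of 1 subunit only. Of 9 clock genes, CRY1 was nearest to a shared site and CRY2 to a HIF-2α site without HIF-1β (50.9 and 101.8), and such counts are too small to set against the background.

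Among the gene lists, the genes that feed back on HIF held the most HIF-2α sites without HIF-1β, 4 of 13 genes beside the background of 1.98%. Of the same 13 genes, 5 were nearest to a shared site, beside 9.35% of all genes. The lists were chosen with earlier results known and the counts are small, so no excess is read from them. EGLN1, a prolyl hydroxylase that marks HIF-α for destruction, had an intronic site with 99.7 and 63.3. HIF3A, which encodes a further α-subunit, had one 25.3 kb away with 63.6 and 114.6. CITED2, which competes with HIF-α for the coactivator p300, had one 334 kb away with 52.0 and 129.8, and BHLHE40 one 4.78 kb from its TSS with 61.8 and 60.9. All 4 were weak sites, and 3 of these genes (HIF3A, CITED2 and BHLHE40) were also nearest to shared sites. The exception, EGLN1, had no site of another kind, and its site was in no other HKC-8 list. EGLN3, a second prolyl hydroxylase, had 1542 and 1356 for HIF-2α and 1090 and 977 for HIF-1β at a shared site 12.3 kb from its TSS.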

How the data were processed

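The lists hold peaks called by the authors with MACS for each ChIP-seq sample on its own. According to the study's methods and the submitters' processing notes, reads were trimmed with Trim Galore 0.3.3 and aligned to hg19 (GRCh37) with BWA 0.7.5a-r405. Reads of low mapping quality (SAMtools 0.1.19), reads in blacklisted regions (bedtools 2.17.0) and duplicates (Picard 1.106) were left out. The version of MACS is not given in the sources used here. Each deposited peak has a position, a name and a score, read here as −10 × log10 of the p-value. Summits and read counts were not used here, so depth is unknown and peak strength depends on it.

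Peaks on the main chromosomes were used. Overlapping peaks called in both replicates of an antibody formed a site, and the other subunit was called present with an overlap of at least 1 bp in either replicate. Ranks are percentiles by score within a list. Distances run from the site's centre to the nearest protein-coding TSS of GENCODE 44 lifted to GRCh37, and motifs were searched within 100 bp of the centre. List values were compared by exact permutation tests, and shares of sites have Clopper-Pearson intervals. The scripts used Python 3.11.15, numpy 2.4.6, pandas 2.3.3, scipy 1.17.1 and pysam 0.24.0, and were tested on simulated data. Sites named first are the 5 of highest mean percentile in each class. The recurrent sites, the AhR-element sites and the GGAAT count were chosen after their values or sequences were seen. The members and gene lists were chosen with earlier results of these data known. The study describes its replicates as independent ChIP-seq experiments, and whether they came from separate cultures is not said in the labels, so p-values measure the spread between these samples. Alternatives were a higher score minimum, lists of equal length, windows of 200 bp in place of peaks, other limits for overlap, TSS distance and motifs, each replicate alone and the replicate number as a block. Some sites are counted but not reported by name here.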

Additional observations from a re-analysis of the deposited data

How the results depend on the processing

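Of the alternative values computed, 58 kept their direction and side of the threshold or moved by less than the replicate spread. Of the rest, 27 moved by more than that spread, 9 changed sign, 2 lost a call at 0.05 and 1 gained one. Part of this count was fixed in advance. In comparisons of 2 lists against 2, no p can pass 0.05, so only a change of sign could show. The replicate block leaves the mean difference unchanged by its design. For the values that did not hold, the cause was not tested except where named. The HRE difference between HIF1aKO lists turned to 1.21 points with lists of equal length, and the AP-1 difference to -0.332 when motifs were counted anywhere in the peak. Over 6 conditions, the AP-1 difference was -3.20 points with motifs anywhere and 7.85 with scores of at least 100, where the HRE difference was -3.49. HIF-2α sites not matched by HIF-1β in both replicates made up 37.1%, and HIF-1β sites not matched by HIF-2α in both 7.74%, since that rule asks for more. Sites without HIF-1β numbered 278 with scores of at least 100, 130 at equal length, 532 with 200 bp windows and 1602 when absence meant not in both. The matching counts of HIF-1β sites without HIF-2α were 35, 119, 102 and 227.

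For HIF-2α sites without minus with HIF-1β, the promoter difference (4.53 points) was 3.59 with scores of at least 100, 7.14 at equal length, 5.27 with 200 bp windows, 5.57 with a TSS within 5 kb and 6.47 with all transcripts. The HRE difference (-2.53) was -3.38, -4.57 and -4.96 under the first 3 of these, -2.27 with an overlap of at least 50% and -6.48 with motifs anywhere. The AP-1 difference (2.96) was 0.156, -0.573, -1.15 and, with motifs anywhere, -0.873. A WT HIF-1β peak lay at 81.5% of these sites at equal length and at 33.0% in both WT replicates.

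With each replicate alone, the promoter difference between HIF1aKO lists ran from -0.420 to 1.85 points, and over 6 conditions from -10.1 to -9.97 (promoter; exact permutation p of 0.0313 without replicate 1 and 0.0625 without replicate 2) and -0.0305 to 1.94 (AP-1). HIF-2α sites without HIF-1β ran from 25.7 to 42.9% and HIF-1β sites without HIF-2α from 12.03 to 16.9%, since only 1 list must then lack the peak. At HIF-2α sites the differences ran from 3.36 to 3.92 (promoter), -5.924 to -5.918 (HRE) and 0.264 to 0.801 (AP-1), and a WT HIF-1β peak from 52.7 to 66.1%. At HIF-1β sites they ran from -1.38 to 7.01 (promoter; the higher value is without replicate 1) and from -21.2 to -5.66 (HRE).

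The replicate numbers are shared between antibodies, but the labels do not say that they mark a shared culture or day. Between same-numbered lists, the percentile differences of replicates had a Pearson correlation of 0.37 over 2719 shared sites. With the replicate block the differences stayed at 0.40 (log2 peak number), 0.715, -0.994 and 1.17 points, with exact permutation p of 0.5, 1, 0.5 and 0.5, where 0.5 is the smallest possible. Depth limits the weakest sites most, since a site under the caller's limit counts as absent.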

Other observations

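The sites of HIF1aKO HKC-8 cells were also looked up in the lists of RCC4, a renal carcinoma line without functional VHL, and HepG2, a liver cancer line. HIF-2α sites without HIF-1β were called for HIF-2α at 20.05% and 9.43% in the 2 RCC4 lists and for HIF-1β at 3.77% and 1.89%. Shared sites had 39.8% and 24.97% for HIF-2α and 11.4% and 10.6% for HIF-1β in RCC4, where the HIF-1β lists were shorter (911 and 1305 peaks) than the HIF-2α lists (4317 and 2990). In HepG2 the sites without HIF-1β were called for HIF-2α at 7.78% and 5.19% and for HIF-1β at 11.8% and 8.02%. HIF-1β sites without HIF-2α were called in at most 4.69% of cases in any RCC4 or HepG2 list. ROBO2 and SMYD3 each recurred in 2 of the HIF-2α lists of these lines and in no HIF-1β list.

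In WT cells, 506 of 5085 HIF-1β sites (9.95%) had neither α-subunit in any list. Of these, 165 (32.6%) had a HIF-1β peak and 179 (35.4%) a HIF-2α peak in HIF1aKO cells, and 49 (9.68%) had HIF-1β without HIF-2α there. In HIF2aKO cells, 513 of 1490 HIF-1β sites (34.4%) had no HIF-1α peak, and 7 of 656 HIF-1α sites (1.07%) no HIF-1β peak.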
